A study of Mus musculus with 4 samples.

Results

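The comparison set the array of back skin labelled treated against the array of tail skin labelled treated, which are 2 of the 4 mouse arrays of the study. The arrays were taken by their group labels. Each treated group had received methyl aminolevulinate as a topical cream, a prodrug from which cells make the light sensitive pigment protoporphyrin IX. After 2.5 h in darkness the upper side of the site was lit with red light of 636 nm from an LED lamp, to 2.5 J/cm2 on the back and 10 J/cm2 on the tail. The back had been fully shaved, and the cream went straight onto the tail. Skin was taken 48 h after treatment, from 3 animals in a group by the study's design. Whether the RNA of those animals was pooled on an array, and their strain, age and sex, are not given in the sources used here. Untreated back skin and untreated tail skin made up the other 2 groups, with 1 array each. The extraction protocol named back skin and tail epidermis, while the labels call both tissues skin, and markers of the dermis are given below.

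There was 1 array in a group, so the differences have no replicate check and carry no p-value. Site, light dose and array cannot be told apart in the treated pair. The values were 1-colour intensities of 200 ng RNA samples on 4 arrays of 1 slide. A relative signal below is a gene's signal divided by the 75th percentile of its own array, taken from the brightest probe of the gene. A difference is the log2 of back minus tail on that scale, so a positive value is higher in back skin. "Higher" and "lower" are used for differences of at least 2-fold. Where the gene was not well above background on the dim array, or saturated on the bright array, the difference is a bound and is written as "at least". Counts and medians of a gene list take a bound at its value. The scanner's own spot error of a difference had a median of 0.20 on the log2 scale, which covers the measurement of a spot and not the spread between animals.

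The 75th percentile of the signal was 1204 on treated back and 909 on treated tail, and the medians of the spike-in control probes were 15313 and 16038, so the treated arrays had similar brightness. Untreated tail was the brightest array, with a 75th percentile of 7261 and 1667 saturated genes, against 334 on treated back, 330 on treated tail and 666 on untreated back. Its ceiling lay at a relative signal of about 9, so differences of bright genes in the untreated pair were compressed or could be read only as bounds. The untreated pair is given beside the treated pair below. The pairs share no array.

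Photodynamic treatment makes reactive oxygen species in cells that hold protoporphyrin when light reaches them. Skin differs along the body. Tail epidermis of the mouse alternates scales with hair bearing interscales, while back skin carries a dense coat whose follicles cycle between growth and rest. Hox transcription factors, encoded in 4 clusters, keep a record of position along the body axis in adult skin cells, and genes with high numbers are known for caudal and distal places.

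Of 16862 genes usable on the arrays, 14115 had a value in the treated pair, 12661 as measured differences and 1454 as bounds. In treated back skin 2245 genes were at least 2-fold higher than in treated tail skin, 15.9% of the genes with a value, and 2890 were at least 2-fold lower, 20.5%. Differences of at least 5 on the log2 scale numbered 74 higher and 127 lower, and at least 7 numbered 18 and 62. The median difference of all genes was -0.23. Of 1390 genes past 2-fold with more than 1 measured probe, 1241 had the same sign in all probes. The higher genes made up 43.7% of the calls with 75th percentile scaling, 69.6% with scaling on the spike-in probes and 21.8% with a normexp background correction. With normexp without spots of outlying local background the share was 45.7%. Spike-in scaling adds 0.47 to every measured difference, and which genes have a bound changes with it. Hoxa2, Hoxb8, Twist1, Wnt7a, Rspo1, Wif1, Lrp6, Il19, Timp1, Cd163 and Lck, given as higher below, were negative with the normexp correction and kept a positive sign once spots with an outlying local background were left out of it.

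Krtap12-1, Krt35, Krtap4-2, Krtap6-2, Krtap31-1, Krtap4-13 and Krtap4-16 were 7 of the 15 largest measured decreases, and they encode keratin-associated proteins and a keratin of the hair fibre. The other 8 were Lrrc15 (-10.43), Crym (-10.18), which encodes a thyroid hormone binding protein, Ly6g6d (-9.42), Vsig8 (-9.14), Padi3 (-9.10), Bhlha9 (-9.07), Krt26 (-8.81) and P3h3 (-8.44). Padi3 converts arginine to citrulline in proteins of the follicle, Krt26 is a keratin of the inner root sheath, and P3h3 modifies proline in collagen.

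Among genes higher in treated back skin, the largest measured difference was that of Spp1. Spp1, which encodes the secreted phosphoprotein osteopontin, had relative signals of 12.2 on treated back, 0.0198 on treated tail, 0.416 on untreated back and 0.0304 on untreated tail. It was 615-fold higher in treated back skin (log2 difference 9.26, spot error 0.27). The signal of Spp1 was highest on the treated back array and low on both tail arrays, with untreated back between them. Ptpn22 (8.84), a phosphatase of lymphocyte signalling, Ch25h (8.33), which makes 25-hydroxycholesterol, and Itga7 (7.56), a laminin receptor subunit, followed. Tspan8 (7.50), the myeloid receptor gene Cd300lf (7.35), Prl2c5 (7.26), Has2 (6.97), which makes hyaluronan, and Derl3 (6.77), of endoplasmic reticulum quality control, were also among the 15. In the untreated pair Tspan8 stood at 7.87, Ch25h at 6.96, Spp1 at 3.77 and Cd300lf at 2.90. Ptgs2, the inducible cyclooxygenase, and Tnfsf18, a ligand of the tumour necrosis factor family, were bounds chosen after their values were seen, and were at least 952-fold higher and at least 625-fold higher.

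**Figure D1:**
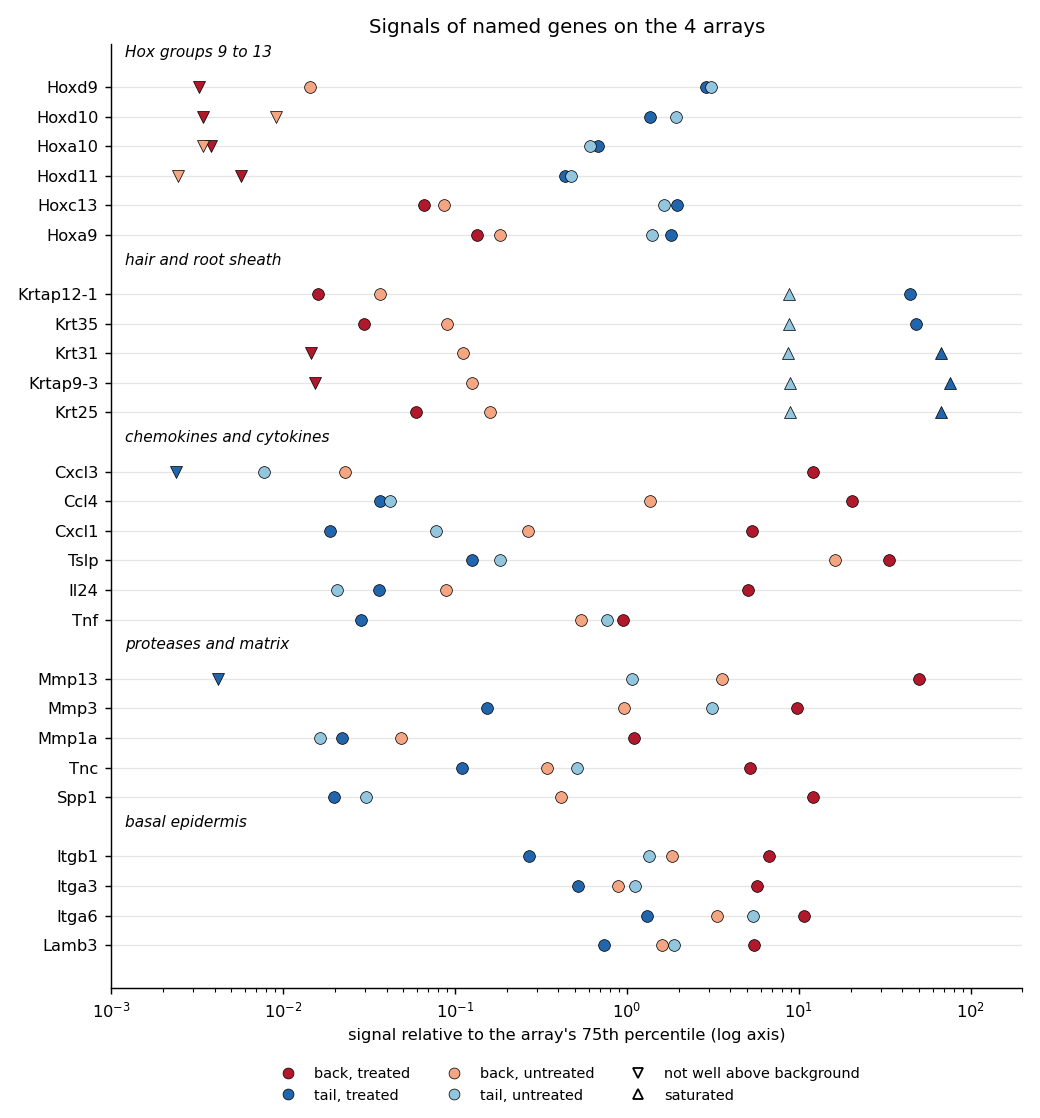
Relative signals (signal over the array's 75th percentile, log axis) of 26 named genes on the 4 arrays, 1 symbol per array. Red circles are treated back, dark blue treated tail, and the pale colours the untreated arrays. Triangles pointing down were not well above background, and triangles pointing up were saturated. Hox and hair genes lie high on both tail arrays, while chemokines such as Cxcl3 lie high on treated back alone.

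Most Hox genes of high number were lower in treated back skin, as they were in untreated back skin. Of 14 genes of Hox groups 9 to 13 with a value, 10 were lower in treated back skin and 0 higher, with a median of -3.70. The untreated pair had 9 lower, 2 higher and a median of -2.34. In the treated pair the median was -1.999 over measured genes only, -2.10 with normexp without spots of outlying background and -0.63 with a signal of at least 200. Hoxa13 had no value in the treated pair, and Hoxc11 had no named probe.

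Hoxd9 gave 0.00326 (not well above background) on treated back, 2.87 on treated tail, 0.0143 on untreated back and 3.08 on untreated tail. It was at least 199.7-fold lower in treated back skin. Hoxd10 gave 0.00343 (not well above background) on treated back, 1.36 on treated tail, 0.0091 (not well above background) on untreated back and 1.94 on untreated tail, and was at least 94.8-fold lower. Both tail arrays were high and both back arrays near or below background for these neighbours in the HoxD cluster. Hoxa10 (at least 47.6-fold lower), Hoxd11 (at least 30.4-fold lower), Hoxa11 (at least 12.7-fold lower), Hoxc12 (at least 15.3-fold lower) and Hoxc10 (at least 4.52-fold lower) were likewise bounds. Hoxc13, which is known for its part in hair and nail formation, was measured on all 4 arrays, with 0.0658 on treated back, 1.96 on treated tail, 0.086 on untreated back and 1.64 on untreated tail. Its difference was -4.90 in the treated pair and -4.25 in the untreated pair. Hoxa9 stood at -3.74 and -2.93, and Hoxc9 at -1.999 and -0.79. The members that were not lower were Hoxb9 (0.75), Hoxd13 (0.43), Hoxb13 (a bound of -0.73) and Hoxd12 (a bound of -0.95).

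In Hox groups 1 to 8, 6 of 19 genes were higher in treated back skin and 2 lower, with a median of 0.11. The lower pair belonged to the HoxD cluster. Hoxd8 gave 0.0502 on treated back, 8.02 on treated tail, 0.246 on untreated back and 8.52 on untreated tail and Hoxd4 gave 0.0202 on treated back, 2.43 on treated tail, 0.12 on untreated back and 1.95 on untreated tail. They were 159.7-fold lower and 120.4-fold lower in treated back skin, in the opposite direction to most of their paralogs. Hoxa5 gave 0.871 on treated back, 0.174 on treated tail, 0.876 on untreated back and 0.157 on untreated tail, a difference of 2.32 that was 2.48 in the untreated pair. Hoxa2 (2.10), Hoxb8 (1.06) and Hoxc8 (at least 8.13-fold higher) were also higher.

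**Figure D2:**
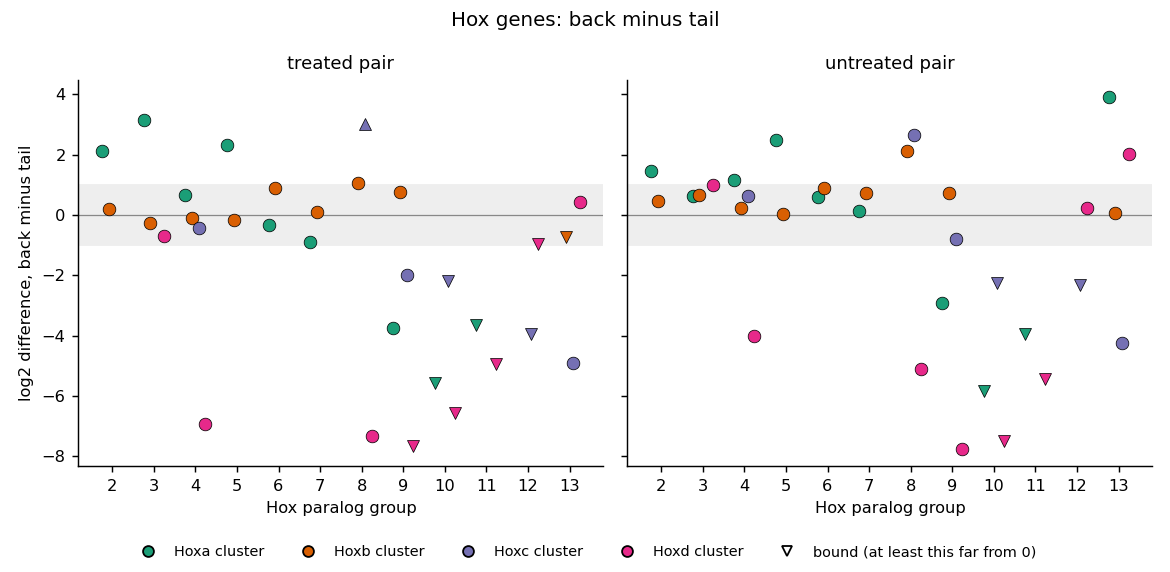
Log2 difference of back minus tail for each Hox gene of groups 2 to 13 with a value, by paralog group and coloured by cluster, in the treated pair (left) and the untreated pair (right). Triangles are bounds and the grey band marks less than 2-fold. Most points lie below the band from group 9 on in the HoxA, HoxC and HoxD clusters, and Hoxd4 and Hoxd8 lie below it among the low groups.

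Other patterning factors also divided the sites. Of 36 with a value, 14 were lower in treated back skin and 5 higher, with a median of -0.78. Tbx3, a T-box repressor of limb and skin development, gave 0.00332 (not well above background) on treated back, 0.538 on treated tail, 0.00318 (not well above background) on untreated back and 0.414 on untreated tail, and was at least 37.5-fold lower in treated back skin. Emx2, a homeobox gene, was at least 20.3-fold lower. Msx2, a homeobox gene expressed in the hair matrix, had relative signals of 0.741 on treated back, 12.0 on treated tail, 1.65 on untreated back and 4.39 on untreated tail, a difference of -4.01. The distal-less genes Dlx2 (-3.28), Dlx3 (-2.54), Dlx4 (a bound of -2.48) and Dlx1 (a bound of -2.20) were lower, and Dlx5 stood at -0.86. The higher members were Irx2 (2.10), Irx1 (1.12), Twist1 (1.51), Twist2 (a bound of 2.21) and Zic1 (a bound of 1.80). Tbx3 and Emx2 had bounds of -5.26 and -5.22 in the untreated pair.

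Hair fibre genes had the lowest median of the 41 gene lists. All 25 hair shaft genes with a value were lower in treated back skin, 19 of them as bounds, with a median of -10.64. All 24 with a value in the untreated pair were lower there too, with a median of -5.79, a figure that the ceiling of the bright untreated tail array limits. Hair keratins form the filaments of the fibre, and keratin-associated proteins cross-link them. Their genes lie in clusters, and an acidic keratin and a keratin-associated protein are shown here as examples. Of the 21 members of the hair shaft list with a promoter window, 16 held the letters TATAAA on either strand in any window. All of these members were lower, so the list gives no comparison group.

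The stretches below are the 110 bases before the transcription start in the RefSeq promoter table of GRCm38.p6, 5′ to 3′, with the letters TATAAA in capitals. Both genes are on the minus strand of chromosome 11, Krt31 at chr11:100050552-100050661 and Krtap9-3 at chr11:99598107-99598216.
Krt31: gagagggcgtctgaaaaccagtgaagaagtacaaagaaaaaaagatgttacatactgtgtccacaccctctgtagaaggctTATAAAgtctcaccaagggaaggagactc
Krtap9-3: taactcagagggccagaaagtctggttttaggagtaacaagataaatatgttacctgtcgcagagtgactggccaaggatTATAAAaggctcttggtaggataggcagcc
The match began 29 bases before the start in Krt31 and 30 bases before it in Krtap9-3. TATAAA, searched on both strands, was present in 13.6% of all 32851 windows of 300 bases (250 before the start and 50 after). Here and below, such shares count windows, while counts of list members count genes with a match in any window.

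Krt31 gave 0.0145 (not well above background) on treated back, 67.1 (saturated) on treated tail, 0.112 on untreated back and 8.61 (saturated) on untreated tail, and was at least 4633-fold lower in treated back skin. Krtap9-3 gave 0.0154 (not well above background) on treated back, 76.1 (saturated) on treated tail, 0.125 on untreated back and 8.92 (saturated) on untreated tail, and was at least 4947-fold lower. Krtap26-1 and Krtap3-3 were at least 4983-fold lower and at least 4829-fold lower. Both back arrays were low and both tail arrays saturated for these genes, and treated back was lower than untreated back. Krtap12-1 was measured on both treated arrays, with 0.0159 on treated back, 44.5 on treated tail, 0.0364 on untreated back and 8.72 (saturated) on untreated tail, a difference of -11.45 with a spot error of 0.33. Krt35 gave 0.0296 on treated back, 48.2 on treated tail, 0.0896 on untreated back and 8.74 (saturated) on untreated tail, a difference of -10.67. Probes of this family can take up signal from near-identical paralogs, so the values of single keratin-associated protein genes are uncertain.

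The inner root sheath is the sleeve that guides the growing hair. All 6 of its genes with a value were lower in treated back skin, with a median of -8.35. That median rests on few genes, and was -4.80 with cyclic loess, -4.26 with quantile and -4.38 with spike-in scaling, -3.87 with normexp, -4.85 with no filter and -1.82 over measured genes. Krt25, Krt27 and Krt71 were at least 1133-fold lower, at least 881-fold lower and at least 236-fold lower. Krt26 was measured at -8.81, Cux1 at -1.82 and Padi1 at -1.39. In the untreated pair Padi1 was on the other side, at 1.43. In bulk skin, fewer cells of a type and less RNA per cell cannot be told apart.

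The Wnt, BMP and hedgehog pathways, which guide follicle growth, held single genes far apart between the sites, while the list lay near the shares and the median of all genes. Of 65 with a value, 18 were lower in treated back skin and 10 higher, with a median of -0.35 that was 0.11 with spike-in scaling and -1.31 with normexp. Among Wnt components, the intracellular inhibitor Nkd1 gave 0.102 on treated back, 5.82 on treated tail, 0.0706 on untreated back and 1.57 on untreated tail, a difference of -5.83. Nkd2 stood at -5.04, and the transcription factors Lef1 and Tcf7 at -3.86 and -1.94. Lef1 acts with beta-catenin in the hair matrix. The receptor genes Fzd10 (-2.87), Fzd4 (-1.65) and Fzd1 (-1.33) were lower, and the ligand Wnt4 stood at -1.83. In the BMP branch, the decoy receptor Bambi gave 0.147 on treated back, 7.76 on treated tail, 0.223 on untreated back and 6.34 on untreated tail, a difference of -5.72, and the ligands Bmp8a (-4.02), Bmp6 (-3.07) and Bmp4 (-1.72) and the antagonist Nog (-2.68) were lower. Nkd1, Bambi and Lef1 were also lower in untreated back skin, at -4.48, -4.83 and -3.11. Inhba, which encodes an activin subunit, gave 8.19 on treated back, 0.0791 on treated tail, 0.615 on untreated back and 0.0313 on untreated tail, and was 104-fold higher in treated back skin. Bmp3 (4.80), Wnt7a (2.06), Rspo1 (1.89), the inhibitor Wif1 (1.39) and the co-receptor gene Lrp6 (1.35) were higher too.

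The pigment cell list had the same sign as the hair shaft and inner root sheath lists. Other follicle lists were split in treated back skin. Follicle stem cell and germ genes had 7 higher and 7 lower of 28, with a median of -0.25. Dermal papilla genes had 5 higher and 5 lower of 14, with a median of -0.42. Of 14 melanocyte genes with a value, 9 were lower in treated back skin and 1 was higher (Rab38, 1.14), with a median of -1.47, against -1.96 in the untreated pair. The median was -2.66 with normexp. Pmel, which forms the fibrils of the pigment granule, gave 0.0795 on treated back, 2.64 on treated tail, 0.0935 on untreated back and 2.05 on untreated tail, a difference of -5.05. Dct, an enzyme of eumelanin synthesis, gave 0.902 on treated back, 11.3 on treated tail, 0.469 on untreated back and 5.45 on untreated tail, a difference of -3.65. Both tail arrays were higher than both back arrays for Pmel and Dct. Tyrp1 (-3.35), Slc24a5 (-3.71), Gpnmb (-3.43) and Oca2 (at least 12.3-fold lower) were lower as well. Mitf, the lineage's transcription factor, stood at -0.41 and its untreated difference at -0.24. The summed relative signal of the 15 genes was 6.89 on treated back and 22.0 on treated tail.

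The outer epidermis was set apart by keratins. Krt2, a keratin of the upper layers, gave 0.349 on treated back, 76.8 (saturated) on treated tail, 32.5 on untreated back and 8.61 (saturated) on untreated tail, and was at least 220.1-fold lower in treated back skin. It was high on untreated back and low on treated back. Krt84, a hard keratin found in tail scales and tongue, gave 0.282 on treated back, 66.7 (saturated) on treated tail, 7.69 on untreated back and 8.66 (saturated) on untreated tail, and was at least 236-fold lower. Krt75, a follicle keratin, stood at -2.20, Foxn1, a regulator of keratinocyte differentiation and hair, at -2.95 and the ectodysplasin receptor gene Edar at -1.67. Of the 15 genes of tail scale and hard epithelium with a value, 7 were lower in treated back skin and 0 higher.

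Genes of terminal differentiation had 9 lower and 3 higher of 20 with a value, with a median of -0.73. The other members on the arrays had neither a measured difference nor a bound, and none of them was dim on both treated arrays. Rptn and Krt78 were at least 7.75-fold lower and at least 6.03-fold lower, and Lce1h, of the late cornified envelope, and Tgm3, a cross-linking enzyme, stood at -2.80 and -2.69. Casp14, a protease of the cornified layer, gave 4.07 on treated back, 10.0 on treated tail, 32.7 (saturated) on untreated back and 3.97 on untreated tail. Flg2, a filaggrin relative, gave 25.9 on treated back, 7.11 on treated tail, 35.0 (saturated) on untreated back and 2.63 on untreated tail, a difference of 1.86. Only 5 of the list had a value in the untreated pair, where the median was 3.04. Barrier lipid genes were split, with 5 higher and 5 lower of 22. Degs2, which makes phytoceramides, stood at 3.65, Ugcg, which makes glucosylceramide, at 1.49, and Smpd1, acid sphingomyelinase, at -1.87.

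The basal layer, where epidermal cells divide and hold to the basement membrane, had the opposite sign. Of 10 basal genes with a value, 7 were higher in treated back skin and 0 lower, with a median of 2.29, or 1.27 with no filter on dim or saturated genes. Itgb1, a subunit of laminin and collagen receptors, gave 6.67 on treated back, 0.268 on treated tail, 1.83 on untreated back and 1.34 on untreated tail, a difference of 4.64. Itga3 gave 5.70 on treated back, 0.523 on treated tail, 0.884 on untreated back and 1.11 on untreated tail, a difference of 3.45. Itga6, a partner in hemidesmosomes, gave 10.73 on treated back, 1.30 on treated tail, 3.33 on untreated back and 5.40 on untreated tail, a difference of 3.04. For these 3 integrin genes treated back was the highest array and treated tail the lowest, with the untreated arrays between them. Lamb3 (2.90), a chain of laminin-332, and the cadherin gene Cdh3 (1.69) followed the same order. Their untreated differences were 0.45 for Itgb1, -0.33 for Itga3, -0.70 for Itga6 and -0.22 for Lamb3, and none of the 7 basal genes with a value there reached 2-fold. Krt5, Krt14 and Col17a1 were saturated on both treated arrays and had no value. Trp63, the transcription factor of stratified epithelium, stood at 0.47.

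Most cytokine and chemokine genes were higher in treated back skin. Of 37 with a value, 27 were higher in treated back skin and 2 lower, with a median of 3.22. The median was 0.83 with normexp, 1.95 with normexp without spots of outlying background and 0.98 over members with a signal of at least 200 on both arrays. In the untreated pair 26 of 34 were higher, with a median of 2.04. The chemokines Cxcl1, Cxcl2 and Cxcl3 attract neutrophils and are classic targets of NF-kB. They lie together on the plus strand of chromosome 5, and the 110 bases before their starts, from the RefSeq promoter table of GRCm38.p6, are shown because all 3 held a kappa-B motif on either strand, in capitals here, spelled as GGG, then any 2 bases, then TTTCC. Cxcl1 is at chr5:90891135-90891244, Cxcl2 at chr5:90903789-90903898 and Cxcl3 at chr5:90785991-90786100.
Cxcl1: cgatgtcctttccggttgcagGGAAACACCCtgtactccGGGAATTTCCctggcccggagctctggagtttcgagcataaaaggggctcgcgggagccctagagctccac
Cxcl2: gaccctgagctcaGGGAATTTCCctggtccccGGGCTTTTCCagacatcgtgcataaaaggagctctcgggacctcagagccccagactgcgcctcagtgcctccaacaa
Cxcl3: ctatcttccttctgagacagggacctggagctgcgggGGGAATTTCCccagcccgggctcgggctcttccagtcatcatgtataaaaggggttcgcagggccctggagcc
The matches began 89 and 71 bases before the start in Cxcl1, 97 and 78 in Cxcl2, and 73 in Cxcl3. The motif was in 1.63% of all windows. Of 18 higher members of the list with a window 5 held it, with Ccl20 and Il6 as the other two. It was also in 1 of 4 members within 2-fold (Csf1) and in 0 of 2 lower members.

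Cxcl3 gave 12.1 on treated back, 0.00239 (not well above background) on treated tail, 0.0228 on untreated back and 0.00771 on untreated tail, and was at least 1069-fold higher in treated back skin. Cxcl1 gave 5.34 on treated back, 0.0187 on treated tail, 0.264 on untreated back and 0.0777 on untreated tail, a difference of 8.16. Cxcl2 was at least 136-fold higher. All 3 were highest on treated back, and Cxcl1 and Cxcl2 were lower on treated tail than on untreated tail. Their differences in the untreated pair were 1.56, 1.77 and 1.07. The macrophage inflammatory proteins Ccl4 (561-fold higher) and Ccl3 (155-fold higher) followed, with untreated differences of 5.03 and 2.46. Ccl20, which recruits Langerhans cell precursors and Th17 cells, gave 20.5 on treated back, 0.21 on treated tail, 24.4 on untreated back and 9.30 (saturated) on untreated tail, a difference of 6.61. Here treated tail was the low array. Cxcl5, Cxcl10 and Il23a were at least 69.3-fold higher, at least 71.2-fold higher and at least 47.7-fold higher.

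Among epithelial cytokines, Tslp, which activates dendritic cells, gave 33.6 on treated back, 0.125 on treated tail, 16.3 on untreated back and 0.183 on untreated tail, a difference of 8.07 that was 6.48 in the untreated pair. Il24, of the interleukin-10 family, gave 5.04 on treated back, 0.0363 on treated tail, 0.0886 on untreated back and 0.0206 on untreated tail, a difference of 7.12, and its relative Il19 stood at 2.57. Tnf gave 0.954 on treated back, 0.0283 on treated tail, 0.544 on untreated back and 0.77 on untreated tail, a difference of 5.08. For Tnf the treated tail array was the low one, and the other 3 lay close together. Il1b stood at 5.20 and 4.37 in the treated and untreated pairs, and Il1a at 2.10 and 2.19. Il33, an alarm cytokine of epithelial nuclei, was at least 3.39-fold higher. The lower members were Cx3cl1 (-2.83) and Cxcl14 (-1.33), a chemokine of resting epithelium. The interleukin-36 genes, listed under their old names, ran the other way from Il24: Il1f6 stood at -3.04 and Il1f8 at -1.64, while their untreated differences were 2.41 and 1.98.

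Matrix-degrading proteases held the largest bound among the listed genes that were higher. Of 25 metalloproteinases, inhibitors and linked matrix genes, 12 were higher in treated back skin and 4 lower, with a median of 0.95. That median was -1.19 with normexp and -0.16 over genes with a signal of at least 200 on both arrays. The untreated pair had 10 higher and 4 lower of 23, with a median of 0.50. The genes of 4 of them, Mmp13, Mmp3, Mmp1a and Mmp10, lie in 1 cluster on the plus strand of chromosome 9, and AP-1 is a known regulator of such collagenases and stromelysins. The 110 bases before each start, from the same RefSeq table, are printed because all 4 held the AP-1 letters TGANTCA, which read the same on both strands and are in capitals. The stretches are at chr9:7272404-7272513, chr9:7445712-7445821, chr9:7464031-7464140 and chr9:7502232-7502341.
Mmp13: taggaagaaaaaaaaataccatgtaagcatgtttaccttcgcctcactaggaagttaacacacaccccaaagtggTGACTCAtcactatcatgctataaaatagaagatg
Mmp3: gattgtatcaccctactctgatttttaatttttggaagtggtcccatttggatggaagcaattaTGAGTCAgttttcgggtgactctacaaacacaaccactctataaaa
Mmp1a: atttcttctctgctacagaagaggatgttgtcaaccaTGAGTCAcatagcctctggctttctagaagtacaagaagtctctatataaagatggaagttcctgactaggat
Mmp10: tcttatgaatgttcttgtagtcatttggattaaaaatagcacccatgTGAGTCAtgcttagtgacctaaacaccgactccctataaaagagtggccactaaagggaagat
The matches began 35, 46, 73 and 63 bases before the start, in that order. These letters were in 7.81% of all windows, and in 5 of the 11 higher members with a window, the other being Mmp12. They were also in 1 of 5 members within 2-fold (Mmp7) and in 0 of 3 lower members.

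Mmp13, a collagenase, gave 49.9 on treated back, 0.00417 (not well above background) on treated tail, 3.57 on untreated back and 1.07 on untreated tail, and was at least 4424-fold higher in treated back skin. Mmp3, a stromelysin, gave 9.80 on treated back, 0.154 on treated tail, 0.969 on untreated back and 3.13 on untreated tail, a difference of 5.99. Mmp10 gave 2.02 on treated back, 0.0716 on treated tail, 0.631 on untreated back and 0.445 on untreated tail, a difference of 4.82. For Mmp13, Mmp3 and Mmp10, treated back was the highest array and treated tail the lowest. Mmp3 had the opposite sign in the untreated pair, at -1.69. Mmp1a gave 1.102 on treated back, 0.022 on treated tail, 0.0485 on untreated back and 0.0164 on untreated tail, a difference of 5.64, and was high on treated back alone. Mmp9, a gelatinase of leukocytes and keratinocytes, and Mmp8, the neutrophil collagenase, stood at 5.17 and a bound of 4.50. Tnc, a matrix protein of healing wounds, gave a difference of 5.56, against -0.57 in the untreated pair. The lower members were the inhibitors Timp4 (-4.52) and Timp2 (-1.92) and the proteases Mmp2 (-2.75) and Mmp11 (-1.26), while Timp1 was higher at 1.01. Among wound genes of keratinocytes, the urokinase receptor gene Plaur (4.14) and the growth factors Hbegf (3.65) and Areg (1.75) were higher. Serpinb3a (-3.08) and S100a7a (-1.31) were lower. That list had 7 higher and 8 lower of 21, with a median of -0.02. Without treatment it had 13 higher and 3 lower of 17, with a median of 1.62.

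Neutrophil, macrophage, dendritic cell and T and NK cell genes had list medians above 0 in both pairs, while the B and mast cell lists were below 0 in the treated pair. Of 20 neutrophil genes with a value, 12 were higher, 3 were lower and the median was 2.02 (untreated pair 1.90). Clec4e and Clec4d, lectin receptors of myeloid cells, stood at 7.03 and 6.46. Csf3r, the receptor of granulocyte colony stimulating factor, gave 0.258 on treated back, 0.00743 (not well above background) on treated tail, 0.00234 (not well above background) on untreated back and 0.000892 (not well above background) on untreated tail, and was at least 22.9-fold higher. Retnlg gave 0.535 on treated back, 0.0432 on treated tail, 0.0121 on untreated back and 0.000644 (not well above background) on untreated tail, a difference of 3.63. Csf3r and Mmp8 were above background on the treated back array alone. The granule protein genes of immature neutrophils did not follow: Mpo stood at -1.40, Elane at a bound of -1.15 and Ctsg at -0.58. The summed signal of the 25 genes was 126 on treated back and 147 on treated tail, a sum that the saturated S100a8 and S100a9 make up for the most part, and both are also keratinocyte genes. Over the neutrophil genes with a processed signal of at least 200 on both treated arrays, the median was -0.019.

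Of 26 macrophage genes 16 were higher and 3 lower, with medians of 1.84 and 2.07 in the treated and untreated pairs. Mrc1, the mannose receptor, gave 0.439 on treated back, 0.00247 (not well above background) on treated tail, 0.0432 on untreated back and 0.000825 (not well above background) on untreated tail, and was at least 38.8-fold higher. Lyz2, lysozyme, gave 5.09 on treated back, 0.389 on treated tail, 1.13 on untreated back and 0.0717 on untreated tail, a difference of 3.71. Cd163, a haemoglobin scavenger receptor, gave 0.427 on treated back, 0.0373 on treated tail, 0.00645 (not well above background) on untreated back and 0.00405 on untreated tail, a difference of 3.52. Arg1 (-2.02) and Itgam (-1.15) were among the lower members. The list's summed signal was 22.9 on treated back and 75.1 on treated tail, and 1 member made up most of the latter.

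Langerhans and dendritic cell genes had 11 higher and 0 lower of 19, with a median of 1.70, and 2.26 in the untreated pair. Cd207, the langerin of Langerhans cells, gave 1.07 on treated back, 0.0571 on treated tail, 3.42 on untreated back and 0.333 on untreated tail, a difference of 4.23. Treated arrays were lower than untreated arrays of the same site for Cd207. Ccr7, which guides dendritic cells to lymph nodes, was at least 24.4-fold higher, Cd86 at least 20.1-fold higher, and the class II gene H2-Ab1 stood at 1.92. The list's summed signal was 61.7 on treated back and 75.4 on treated tail, where the keratinocyte gene Cd24a was saturated.

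For T and NK cells 12 of 19 genes were higher and 3 lower, with medians of 1.58 and 2.73, and summed signals of 8.95 on treated back and 4.96 on treated tail. The interleukin-7 receptor gene Il7r stood at 4.06 and the kinase gene Lck at 1.70. The lower members were Cd4 (-3.96), Cd5 (-1.65) and Cd8a (-1.59). Cd4 gave 0.0992 on treated back, 1.55 on treated tail, 2.85 on untreated back and 0.634 on untreated tail, so it was low on treated back and high on untreated back. With normexp the medians of the neutrophil, macrophage, T and NK cell and interferon lists had the opposite sign. With normexp without spots of outlying background they were 0.40, 1.13, 0.42 and 0.73 in that order. With a signal of at least 200 on both arrays the medians were 0.22 for macrophages, 0.72 for Langerhans and dendritic cells, 0.18 for T and NK cells and 0.72 for interferon genes. B and plasma cell genes had 2 higher and 3 lower of 6, with a median of -1.15, and mast cell genes 2 higher and 5 lower of 11, with a median of -0.56. How far leukocyte number accounts for the cytokine and protease differences was not tested.

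Interferon response genes shared the direction. In treated back skin 19 of 31 were higher and 1 was lower (Bst2, -1.77), with a median of 1.53, and 2.21 in the untreated pair. Irf1, a transcription factor of the pathway, gave 11.7 on treated back, 0.593 on treated tail, 8.91 on untreated back and 5.27 on untreated tail, a difference of 4.30. Irf8, of myeloid cells, stood at 4.11. Oasl2 was at least 47.9-fold higher, and the immunoproteasome genes Psmb8 and Psmb9 stood at 3.22 and 2.39. For Irf1 the treated tail array was the low one.

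Stress genes were higher in treated back skin for a part of each list, and a part was higher in untreated back skin too. Of 25 immediate early genes 12 were higher and 1 was lower (Dusp2, -3.25), with a median of 0.99. The untreated pair had 9 higher and 0 lower of 14, with a median of 1.13. Atf3, a stress transcription factor, gave 10.0 on treated back, 0.164 on treated tail, 22.7 on untreated back and 8.61 (saturated) on untreated tail, a difference of 5.93. Nr4a1, an orphan nuclear receptor that early signals induce, gave 29.4 on treated back, 0.806 on treated tail, 33.1 (saturated) on untreated back and 8.59 (saturated) on untreated tail, a difference of 5.19. Fosl1, which encodes a subunit of AP-1, gave 3.09 on treated back, 0.195 on treated tail, 8.58 on untreated back and 4.13 on untreated tail, a difference of 3.99. For Atf3, Nr4a1 and Fosl1 treated tail lay far below the other 3 arrays. Fos and Egr1 differed by 0.46 and 0.14, less than 2-fold.

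Heat shock and unfolded protein genes had 17 higher and 4 lower of 33, with a median of 1.02. Without treatment 13 of 22 were higher and 1 was lower, with a larger median of 1.37. Ddit3 (3.75), a factor of the endoplasmic reticulum stress response, Pdia4 (3.22), a disulphide isomerase, and the chaperone gene Hsph1 (3.19) were higher. Hspb7 (-3.12), Hspa2 (-2.87), Chac1 (-2.25), which degrades glutathione, and Hspb8 (-1.27) were lower. Hypoxia and glycolysis genes had 13 higher and 2 lower of 25, with a median of 1.11. The untreated pair had 4 higher and 2 lower of 16, with a median of 0.69. Vegfa, the vessel growth factor, gave 22.9 on treated back, 1.27 on treated tail, 7.42 on untreated back and 2.69 on untreated tail, a difference of 4.17. Slc16a3, a lactate exporter, gave 44.9 on treated back, 2.67 on treated tail, 2.70 on untreated back and 0.994 on untreated tail, a difference of 4.07. Both were highest on treated back. Adm (4.51), Pfkfb3 (4.38) and Hif1a (2.22) were higher, Pfkm (-2.22) and Epas1 (-1.09) lower, and the core glycolytic genes Eno1 and Pkm stood at 0.08 and -0.06.

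Antioxidant genes had more lower than higher members, to an extent that moved with the scaling. Of 40 NRF2 targets and antioxidants 14 were lower in treated back skin and 7 higher, with a median of -0.60, next to -0.23 over all genes. The list median was -0.14 with spike-in scaling, -0.18 with normexp and -0.32 with quantile scaling. In the untreated pair it was -0.03, or -0.42 with quantile scaling and -0.68 with cyclic loess. The glutathione S-transferase Gsta3 gave 0.0265 on treated back, 0.975 on treated tail, 0.0491 on untreated back and 0.264 on untreated tail, a difference of -5.20. Gsta2 (-3.20), Gsta1 (-2.91), Gstm1 (-1.26) and Gpx2 (-2.17), a glutathione peroxidase, were lower. Hmox1, the heme oxygenase that oxidative stress induces, gave 6.46 on treated back, 14.9 on treated tail, 20.0 on untreated back and 9.99 (saturated) on untreated tail, a difference of -1.20. Both treated arrays were below untreated back for Hmox1. The higher members were led by Gsr (2.45), glutathione reductase, Gsta4 (2.06) and Akr1b8 (1.75). Nqo1, a standard NRF2 target, stood at -0.12, and Nfe2l2, which encodes NRF2, at 1.32.

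Methyl aminolevulinate enters the heme pathway, whose enzymes set how much protoporphyrin collects. Fech, the ferrochelatase that turns protoporphyrin into heme, gave 1.57 on treated back, 6.53 on treated tail, 1.14 on untreated back and 6.13 on untreated tail, a difference of -2.06 that was -2.43 in the untreated pair. Both tail arrays were above both back arrays for Fech. Alas2, the erythroid form of the first enzyme of the pathway, stood at -2.32, and Alas1, the form of other cells, at 0.63. Later enzymes before Fech stood at -0.16 (Alad), -0.22 (Urod), 0.81 (Cpox) and 0.48 (Ppox), each less than 2-fold apart. Abcg2, a transporter that exports porphyrins, gave 4.61 on treated back, 0.521 on treated tail, 0.968 on untreated back and 2.00 on untreated tail, a difference of 3.15. Flvcr1, a heme exporter, stood at 4.17, and Slc40a1, the iron exporter ferroportin, at -4.10. Slc15a1 and Slc15a2, peptide carriers known to take up aminolevulinate, stood at -0.85 and 1.04. The list as a whole had 7 higher and 6 lower of 27, close to the shares over all genes.

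Cell division lists had medians above 0 in the treated pair and below 0 in the untreated pair, and most members were within 2-fold. Of 30 mitosis genes 10 were higher, 0 were lower and the median was 0.62 against -0.81 in the untreated pair. Of 37 replication genes 14 were higher, 0 were lower and the median was 0.69 against -0.59. In the treated pair 20 mitosis and 23 replication genes were within 2-fold. In the untreated pair 12 of 29 mitosis genes were lower and 1 was higher, and 10 of 36 replication genes were lower and 4 higher. Spike-in scaling gave medians of 1.09 and 1.16 in the treated pair, and normexp 0.56 and 0.38. Anln, a scaffold of the dividing furrow, gave 0.75 on treated back, 0.138 on treated tail, 0.248 on untreated back and 0.632 on untreated tail, a difference of 2.45. Top2a gave 1.25 on treated back, 0.428 on treated tail, 0.398 on untreated back and 0.561 on untreated tail, a difference of 1.55. Mcm2, a part of the replicative helicase, gave 4.14 on treated back, 1.73 on treated tail, 1.48 on untreated back and 2.15 on untreated tail, a difference of 1.26. Treated back was the highest array for Anln, Top2a and Mcm2. Bub1 (2.38), Ccnb1 (1.39), Pole2 (1.89) and Pola1 (1.86) were higher, while Plk1 (0.25), Aurkb (0.17) and Tyms (-0.14) stayed under 2-fold. Over the settings run, both list medians were above 0 in the treated pair.

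Of 38 p53 target and apoptosis genes 12 were higher, 4 were lower and the median was 0.38. The untreated pair had 11 higher and 3 lower of 30, with a median of 0.44. Pmaip1, which encodes the death protein Noxa, gave 55.0 (saturated) on treated back, 1.68 on treated tail, 37.3 (saturated) on untreated back and 2.44 on untreated tail, and was at least 32.7-fold higher. The death receptor gene Fas gave 3.29 on treated back, 0.121 on treated tail, 3.34 on untreated back and 0.333 on untreated tail, a difference of 4.76. Apaf1, Casp4 and Birc3 stood at 3.38, 3.16 and 3.01. Cdkn1a, the cell cycle inhibitor p21, and Bax differed by less than 2-fold, at 0.11 and 0.33. The lower members were Sesn1 (-1.61), Zmat3 (-1.35), Sesn2 (-1.07) and Casp9 (-1.001).

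Markers of the tissue under the epidermis bear on the labels, since the tail RNA was said to come from epidermis. Genes of fibroblasts and matrix had 7 higher and 6 lower of 28 in treated back skin, with a median of -0.24, next to -0.23 over all genes, and 1.30 in the untreated pair. With spike-in scaling the treated median was 0.20. Col1a1 gave 0.567 on treated back, 0.684 on treated tail, 1.38 on untreated back and 0.322 on untreated tail, a difference of -0.27, and Col1a2 stood at -0.89. Dcn, decorin, gave 0.706 on treated back, 1.92 on treated tail, 0.0925 on untreated back and 0.984 on untreated tail, a difference of -1.44. Sparc gave 0.862 on treated back, 3.48 on treated tail, 0.821 on untreated back and 8.89 (saturated) on untreated tail, a difference of -2.01. Matrix genes were thus above background on both tail arrays. Fbln2 (2.26) and Pdgfra (a bound of 2.16) were higher. The list's summed signal was 69.2 on treated back, 29.8 on treated tail, 41.4 on untreated back and 31.9 on untreated tail.

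Endothelial and pericyte genes had 3 higher and 6 lower of 20, with a median of -0.05. Over all genes with a value, 15.9% were higher and 20.5% lower. The higher members were Tie1 (a bound of 2.49), Lyve1 (1.47) and Pdpn (a bound of 5.81), podoplanin, which basal keratinocytes can also make. Cldn5 (-1.82) and Pecam1 (-1.71) were among the lower ones. Skeletal muscle genes had 4 higher and 8 lower of 26, with 10 of 35 not well above background on treated back and 8 on treated tail. Acta1 stood at -0.31 and Ryr1 at -3.26. Red blood cell genes were lower, 4 of 6, with Hba-a1 at -1.63 and Hbb-bt at -2.06. Over the fibroblast, endothelial, fat, muscle and red blood cell lists together, 20 of 98 genes were higher, 31 were lower and the median was -0.27 in the treated pair and 1.02 in the untreated pair. The part of tissue layers in the site differences was not tested.

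Set side by side, the pairs showed which site differences were also present without treatment. In the untreated pair 27.4% of the genes with a value were higher in back skin and 17.2% lower. Of 2073 genes higher in treated back skin with a value there, 1154 (55.7%) were also higher, 85 were lower and 834 were under 2-fold. Of 2647 lower genes, 1028 (38.8%) were also lower, 348 were higher and 1271 were under 2-fold. Over the genes with a value in both pairs, 26.6% were higher and 17.5% lower in the untreated pair. Across 11281 genes measured on all 4 arrays, the differences of the pairs had a Pearson correlation of 0.47 and a Spearman correlation of 0.37. Genes are not independent replicates, and the arrays share a slide and its probes.

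The medians of Hox groups 9 to 13, hair shaft and pigment genes were below 0 in both pairs. Mmp3, Cxcl1, Tnc, Cyp2a5, Tnf, Spp1, Nppb and Dram1 had the largest gaps toward back in the treated pair. Cyp2a5, a cytochrome P450, gave 1.13 on treated back, 0.0248 on treated tail, 0.0201 on untreated back and 0.0247 on untreated tail. Nppb, a natriuretic peptide gene, gave 2.98 on treated back, 0.0888 on treated tail, 1.94 on untreated back and 2.21 on untreated tail. Dram1, a lysosomal protein gene that p53 can induce, gave 0.468 on treated back, 0.0518 on treated tail, 0.0971 on untreated back and 0.392 on untreated tail. Cyp2a5 was high on treated back, Nppb low on treated tail, and Dram1 low on treated tail and untreated back. The gaps toward tail were led by Gng8, Nmu, Ugt3a1, Aqp5, Idi2, Cd4, Pitx1 and Lypd11. Gng8, a G protein gamma subunit, gave 1.98 on treated back, 2.74 on treated tail, 4.91 on untreated back and 0.0075 on untreated tail, so its gap came from the low untreated tail array. Nmu, a neuropeptide gene, gave 0.0681 on treated back, 1.60 on treated tail, 8.22 on untreated back and 0.985 on untreated tail, high on untreated back. Ugt3a1, a sugar transferase gene, gave 0.0145 on treated back, 4.85 on treated tail, 0.203 on untreated back and 0.79 on untreated tail, high on treated tail. The size of these gaps has no replicate check.

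**Figure D3:**
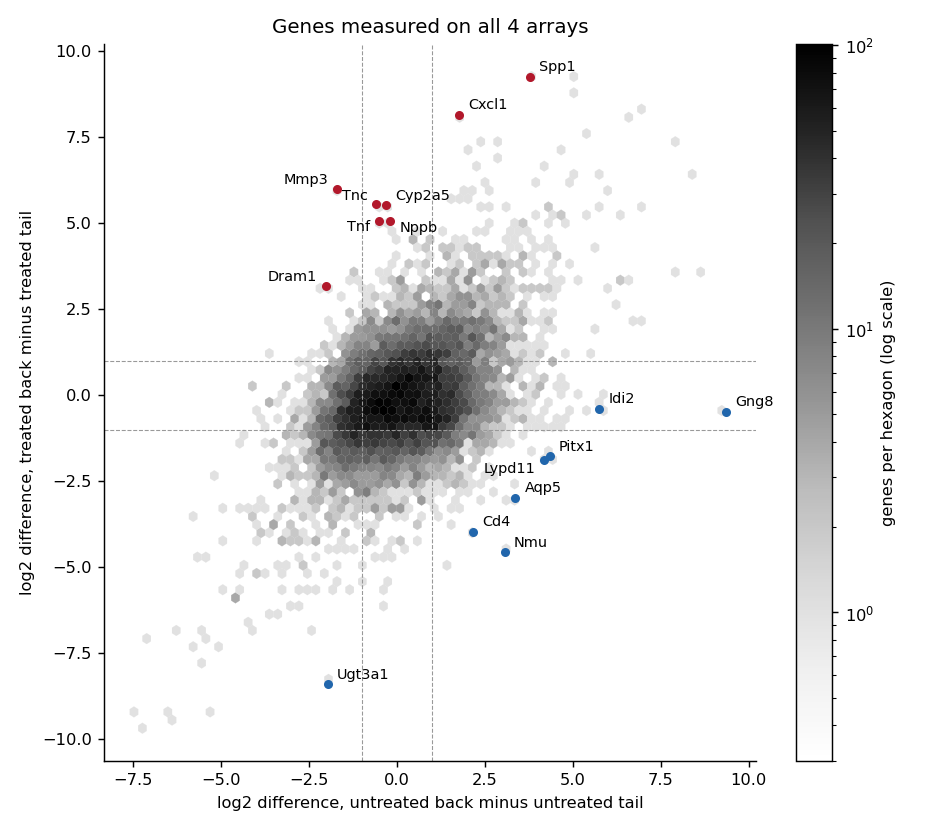
Log2 differences of back minus tail in the treated pair (vertical) against the untreated pair (horizontal) for 11281 genes measured on all 4 arrays, as hexagons shaded by gene number on a log scale. Dashed lines mark 2-fold, and the 8 genes with the largest gap each way are named in red (toward back when treated) and blue. The cloud rises from lower left to upper right, with a Pearson correlation of 0.47.

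**Figure D4:**
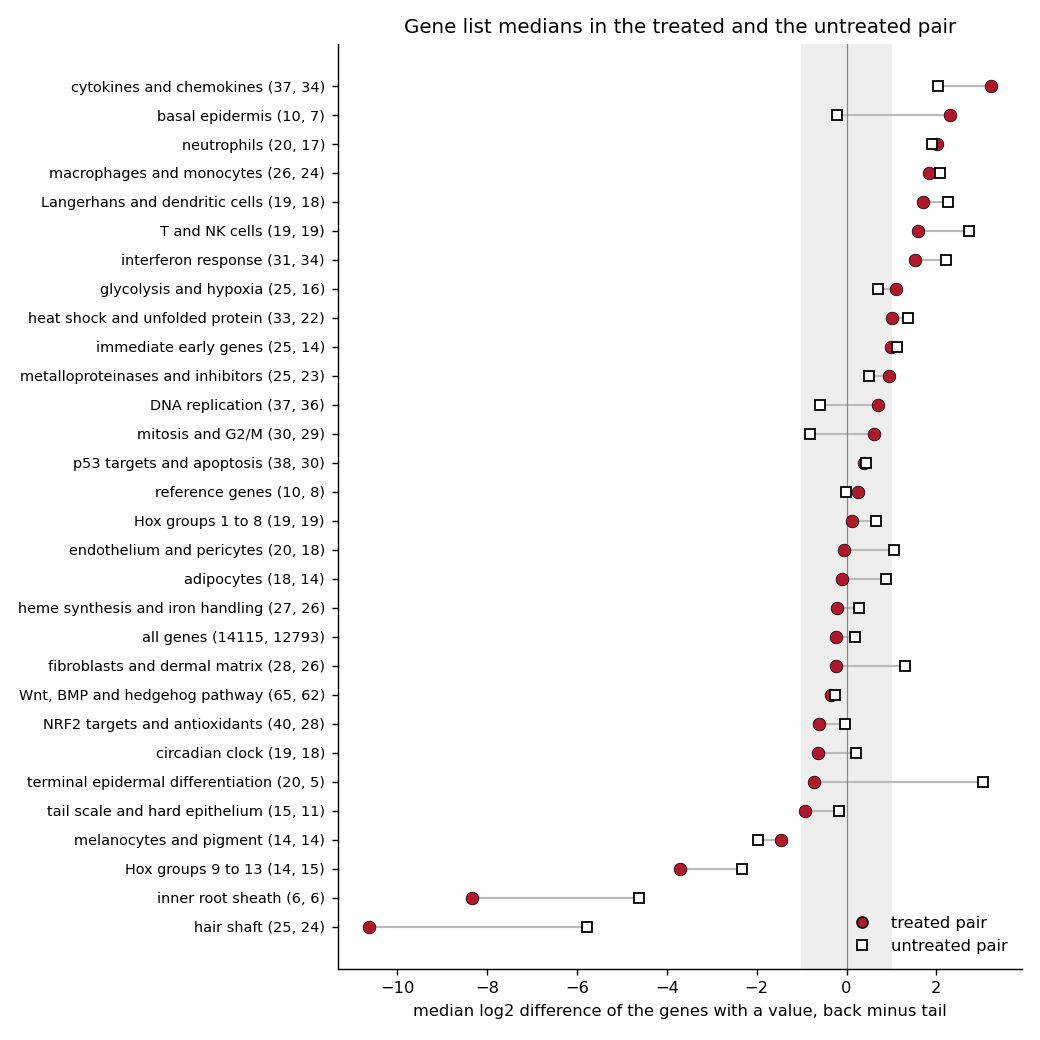
Median log2 difference of back minus tail for 29 gene lists and all genes, in the treated pair (red circles) and the untreated pair (open squares). Numbers in brackets are the genes with a value in each pair, and the grey band marks less than 2-fold. Hair lists lie at the far left in both pairs, and the basal epidermis list lies at 2.29 in the treated pair and -0.22 in the untreated pair.

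Reference genes set a scale for these values. Of 10 with a value, 9 differed by less than 2-fold, with a median of 0.25. Hprt stood at -0.23, Actb at -0.12, Gapdh at 0.56, Tbp at 0.38 and Sdha at -0.01. B2m, which belongs to class I antigen presentation as well, was at least 5.34-fold higher.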

How the data were processed

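RNA from 4 groups of mouse skin was hybridised in 1 colour (Cy3) to 4 Agilent whole genome arrays of 1 slide, with 200 ng of RNA per sample per the labels' protocols. The deposited scanner files hold spot intensity, background-subtracted by the scanner's software (processed signal), Feature Extraction 10.5.1.1 per the file headers and 10.7 per the submitters' processing notes. The headers name mm8, so no coordinate was taken from them. The authors' deposited table of log2 values has the median of each probe at 0. For 99.98% of probes, its differences between arrays equalled those of the log2 processed signal up to a fixed offset, to within 0.001. Its scale and direction are therefore known, while its scaling step is not given in the sources used here. Its column medians were 0.084 (treated back), 0.099 (treated tail), -0.031 (untreated back) and -0.28 (untreated tail).

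Control spots and outlier spots were left out, repeat spots averaged, and log2 signals set against the 75th percentile of their array (Python 3.11.15, pandas 2.3.3, numpy 2.4.6). Of 41174 probes, 24375 (59.2%) had 1 symbol, updated by unversioned accession to RefSeq GRCm38.p6 where listed, for 17016 symbols. The brightest probe stood for a gene. No value was given to 2747 genes. They were dim on both treated arrays, saturated on both, or dim or saturated on a single array with a difference that could not be read as a bound. For a bound, the bright array was set against the dim probe's own signal or the array's detection floor (its lowest signal called well above background), whichever was higher.

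Named genes were the 15 largest measured differences each way, the leading members of 41 gene lists, further members of a described family, and the 8 largest gaps each way between the pairs. The compared groups, members and lists were chosen with earlier results of these data known. The alternatives were normexp (offset 50, limma 3.58.1 in R 4.3.3), quantile, cyclic loess, median and spike-in scaling, other filters, the mean of probes, outlier spots kept and the authors' table. Median spot signals were used for normexp in place of mean signals, which the files used here lack. Normexp without spots of outlying local background was added after seeing the data, as were quantile and cyclic loess for the untreated pair. The steps were tested on simulated data with known fold changes. The number of arrays limits the precision. Some genes of the lists are counted but not reported by name here.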

Additional observations from a re-analysis of the deposited data

Results flagged for a closer look

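Some gene lists and genes had opposite signs in the treated and the untreated pair, which share no array. With 1 array in a group these differences were not tested, and the bright untreated tail array is in every untreated value. Among lists, terminal differentiation had a median of -0.73 in the treated pair and 3.04 in the untreated pair, over 20 and 5 genes. Cell division lists ran the opposite way, with mitosis at 0.62 against -0.81 and DNA replication at 0.69 against -0.59. Among lists with medians at least 0.5 from 0 in both pairs, 5 lists of other cells were below 0 in the treated pair and above 0 in the untreated pair. B and plasma cells stood at -1.15 against 1.00, mast cells at -0.56 against 0.65, skeletal muscle at -0.51 against 0.80, cartilage, bone and tendon at -0.52 against 1.49, and red blood cells at -1.85 against 0.59. With spike-in scaling the treated medians were -0.09 for mast cells, -0.12 for skeletal muscle and -0.05 for cartilage, bone and tendon, and -0.11 for terminal differentiation. Cyclic loess gave untreated medians of 0.29 for B and plasma cells, 0.39 for mast cells, 0.34 for skeletal muscle and 0.18 for red blood cells. Quantile scaling gave 0.50, 0.20, 0.32 and 0.31 in that order. Cartilage, bone and tendon stood at 1.30 with cyclic loess and 1.17 with quantile scaling.

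Of genes, Mmp3 stood at 5.99 in the treated pair and -1.69 in the untreated pair, and Dram1 at 3.17 and -2.01. Nmu (-4.55 and 3.06), Cd4 (-3.96 and 2.17) and Aqp5 (-2.97 and 3.37) ran from tail to back. Pitx1, a homeobox gene of hindlimb identity, stood at -1.77 and 4.35, with relative signals of 0.125 on treated back, 0.426 on treated tail, 0.694 on untreated back and 0.0339 on untreated tail. Lypd11 stood at -1.89 and 4.19. Aqp5, a water channel of glands, gave 0.334 on treated back, 2.62 on treated tail, 8.61 on untreated back and 0.832 on untreated tail.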

How the results depend on the processing

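No replicate could be left out and no paired analysis was possible because each group had 1 array. Normexp moved the lower genes to 5943, the share of higher genes to 21.8% and the median of all genes to -0.62. It set the first quartile of corrected signal at 735 on treated tail and 74.8 on treated back, and at 72.1 and 74.0 without spots of outlying local background. On treated tail 5 spots lay more than 100 below their local background, all flagged as background outliers, and on treated back 0 did. Under normexp the median was -1.45 for neutrophils, -1.01 for macrophages, -2.23 for T and NK cells and -0.39 for interferon genes. With spots of outlying local background left out, these medians were 0.40, 1.13, 0.42 and 0.73, and the share of higher genes was 45.7%. The genes that changed sign under normexp with all spots were Hoxa2 (-1.98), Hoxb8 (-0.45), Twist1 (-2.38), Wnt7a (-1.76), Rspo1 (-0.93), Wif1 (-0.89), Lrp6 (-0.30), Il19 (-0.74), Timp1 (-0.047), Cd163 (-0.048) and Lck (-1.29). Spike-in scaling gave 3634 higher and 1587 lower genes, a share of 69.6% and a median of 0.24. A signal of at least 200 left 1221 higher and 1468 lower genes, and a neutrophil median of -0.019. Under the other alternatives run, no list median or named gene past 2-fold changed sign. Dim genes carried most bounds, so their folds are limited by background.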

Other observations

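More clock genes were lower than higher in treated back skin. Of 19 with a value, 8 were lower and 3 higher, next to 20.5% and 15.9% of all genes, so the higher ones were near the share over all genes. The median was -0.63, against 0.20 in the untreated pair, a sign that turned with quantile and cyclic loess scaling. The PAR domain factors, which carry clock output, were lower. Hlf gave 0.0862 on treated back, 1.22 on treated tail, 0.182 on untreated back and 2.13 on untreated tail, a difference of -3.82 that was -3.55 in the untreated pair, and Dbp stood at -1.93 and -1.66. Both tail arrays were above both back arrays for Hlf and Dbp. Tef was lower too, at -2.07. The repressor genes Per1 (1.81), Nr1d2 (1.17) and Bhlhe40 (1.37) were higher, and Bhlhe40 stood at -1.54 in the untreated pair. The hour of day at which skin was taken is not given in the sources used here.

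Genes of sebaceous lipid synthesis had 10 lower and 2 higher of 24, with a median of -0.55. Fads2, a fatty acid desaturase of sebocytes, gave 0.127 on treated back, 2.06 on treated tail, 0.208 on untreated back and 0.586 on untreated tail, a difference of -4.02. Elovl3, a fatty acid elongase, gave 3.01 on treated back, 18.6 on treated tail, 0.965 on untreated back and 2.93 on untreated tail, a difference of -2.62. Treated tail was the highest array for Fads2 and Elovl3. Far1 (2.49), which makes fatty alcohols, was higher. Fat cell genes were split, with 5 higher and 7 lower of 18. Their median was -0.11, or 0.27 over measured genes only. The lowest was Fabp4, a fatty acid carrier, which gave 2.53 on treated back, 26.9 on treated tail, 1.90 on untreated back and 5.84 on untreated tail, a difference of -3.41. Plin4 stood at -3.17, while Slc2a4 (1.94), Aqp7 (1.81) and Cfd (1.69) were higher. Hdc, which makes histamine, gave 1.15 on treated back, 0.0381 on treated tail, 0.0803 on untreated back and 0.00817 on untreated tail, a difference of 4.92. Of the other mast cell genes, the receptor gene Mrgprb2 was at least 7.25-fold higher, and its untreated difference was 6.94. Kit, which is also a pigment cell gene, and Mcpt4 stood at -1.57 and -0.56. The mast cell list had 2 higher and 5 lower of 11.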
